A study of Mus musculus with 33 samples.

Results

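The stretch of the Tcra-Tcrd locus that holds the T cell receptor alpha enhancer (Eα) and the constant gene Trac was examined as a captured site in 3-way contacts, that is, as a piece of DNA caught together with a bait and a further piece. The stretch runs from 54.22 to 54.23 Mb of chromosome 14 (mm10), covers 2 bins of 5000 bases, and its MboI fragments span chr14:54219581-54229984, since a fragment was put in the bin of its last base. A bin pair was a member when at least 1 of its bins was in this stretch and the other lay anywhere from 53.74 to 54.3 Mb. The members were 220 pairs with 1 of the 110 other bins and 3 pairs within the stretch, out of the 6328 bin pairs that the region allows. The first bin (to 54.225 Mb, the Trac bin) holds every annotated exon of the stretch, all of them of Trac, which runs from 54220521 to 54224206 on the plus strand. The second bin (from 54.225 Mb, the Eα bin) holds no annotated exon, and Eα and the CTCF-binding element beside it lie there.

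In a 3C-HTGTS library of this kind, a primer in a bait reads through the first 2 MboI fragments ligated to it, so each read gives a bait and a pair of captured pieces. The series has 33 libraries, 25 of CD4+CD8+ (DP) thymocytes and 8 of liver, all from C57BL/6 mice that lack Rag1, the controls included, so that the locus could not rearrange. The WT DP thymocytes were CBE+/+ Rag1-/- and the mutant ones CBE-/- Rag1-/-, called EACBE-/- below, which lack the CTCF-binding element downstream of Eα. Both were brought to the DP stage by 150 µg of anti-CD3 antibody given 3 weeks after birth, and the thymus was collected 10 days after that. The liver came from CBE+/+ Rag1-/- mice, whose age and treatment the labels do not give. No sorting of DP cells is described in the sources used here. A contact assay holds no transcripts, so the labelled cell types could not be checked against their markers. The baits were the TEA promoter (TEAp), Trdd2, the INT2 element and a CTCF site at Trav17, with 3 DP WT libraries each. TEAp and Trav17 also had 3 EACBE-/- libraries each, and TEAp, INT2 and Trav17 had 2 liver libraries each. The 9 libraries whose bait is Eα itself sit inside the stretch and were kept apart.

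Eα is the enhancer that switches on rearrangement of the Tcra locus in DP thymocytes, acting on TEAp at the start of the joining (Jα) segments and on the variable (V) segments nearest to it. CTCF holds loops of chromatin between its bound sites, and such sites lie beside Eα, at TEAp, at many V promoters and at the INT elements, which stand between the V segments and the Tcrd genes. Dad1, the gene downstream of Eα, encodes a subunit of the oligosaccharyltransferase and is used in most cells.

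DP depth ranged from 12509 region pairs (EACBE-/-, Trav17 bait, replicate 3) to 256778 (WT, INT2 bait, replicate 2), and liver depth from 675 (Trav17 bait, replicate 2) to 29910 (INT2 bait, replicate 1), leaving liver the least precise arm. Reads carry no molecular identifiers, so that copies of 1 ligation product count several times, and intervals cover counting error only. Distinct pairs of fragment ends in the stretch were each read 2.38 to 9.98 times in the WT Trav17 libraries and 2.73 to 3.86 times in the WT TEAp libraries.

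The sequences of the 3 fragments to which the results turn most often are shown first. The reads cut the stretch into 20 of the region's 1385 MboI fragments. The first is the fragment of 330 bases that holds Eα (chr14:54227255-54227584), shown as its part at chr14:54227421-54227550 with the palindrome TGACGTCA, the letters that CREB and ATF proteins bind, and CTTTGA, the core that TCF and LEF proteins bind, in capitals. The second is a fragment of 154 bases 1 kb downstream (chr14:54228261-54228414), shown whole because it was absent in every EACBE-/- library. The third is part (chr14:54228051-54228150) of the fragment of 676 bases between them. In these, AGGGGGC and GGGGGCAG, which are letters of the core of the CTCF motif, are in capitals. All are from mm10, plus strand.
Eα fragment: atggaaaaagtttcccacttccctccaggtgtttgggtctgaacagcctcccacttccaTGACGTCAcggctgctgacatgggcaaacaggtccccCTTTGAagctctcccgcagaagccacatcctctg
154-base fragment: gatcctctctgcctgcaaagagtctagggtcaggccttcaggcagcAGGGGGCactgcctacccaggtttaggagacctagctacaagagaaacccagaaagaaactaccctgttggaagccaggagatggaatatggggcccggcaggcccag
676-base fragment: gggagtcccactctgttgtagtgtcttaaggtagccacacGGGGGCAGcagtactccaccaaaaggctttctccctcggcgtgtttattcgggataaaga
Each motif was searched on both strands. TGACGTCA occurred in 2 of the 1385 fragments (0.144%), AGGGGGC in 57 (4.12%), GGGGGCAG in 23 (1.66%) and CTTTGA in 342 (24.7%). In tiles of 154 bases over the region the shares were 0.0550%, 1.57%, 0.660% and 12.6%. AGGGGGC and GGGGGCAG overlap in letters, and a match describes the sequence and is not a measured binding site.

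The Eα fragment and the 154-base fragment were captured at like levels in WT DP thymocytes, and both were far above the rest of the stretch. With the TEAp bait the Eα fragment was in 72.3, 122.9 and 128.1 of every 10000 region reads in the 3 WT libraries, and the 154-base fragment in 86.6, 105.6 and 120.4. The means were 107.8 ± 30.8 (SD, n = 3) and 104.2, a difference well inside that spread. With the Trdd2 bait the means were 75.7 and 71.7, and with the Trav17 bait 54.7 ± 11.2 (57.0, 42.6 and 64.7) and 52.2 (44.3, 52.7 and 59.5). The 676-base fragment between them followed, at 39.7, 45.6 and 37.1 with the TEAp bait. The order of these fragments was thus alike for the 3 baits whose reads are at hand, while the level differed by bait.

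**Figure D1:**
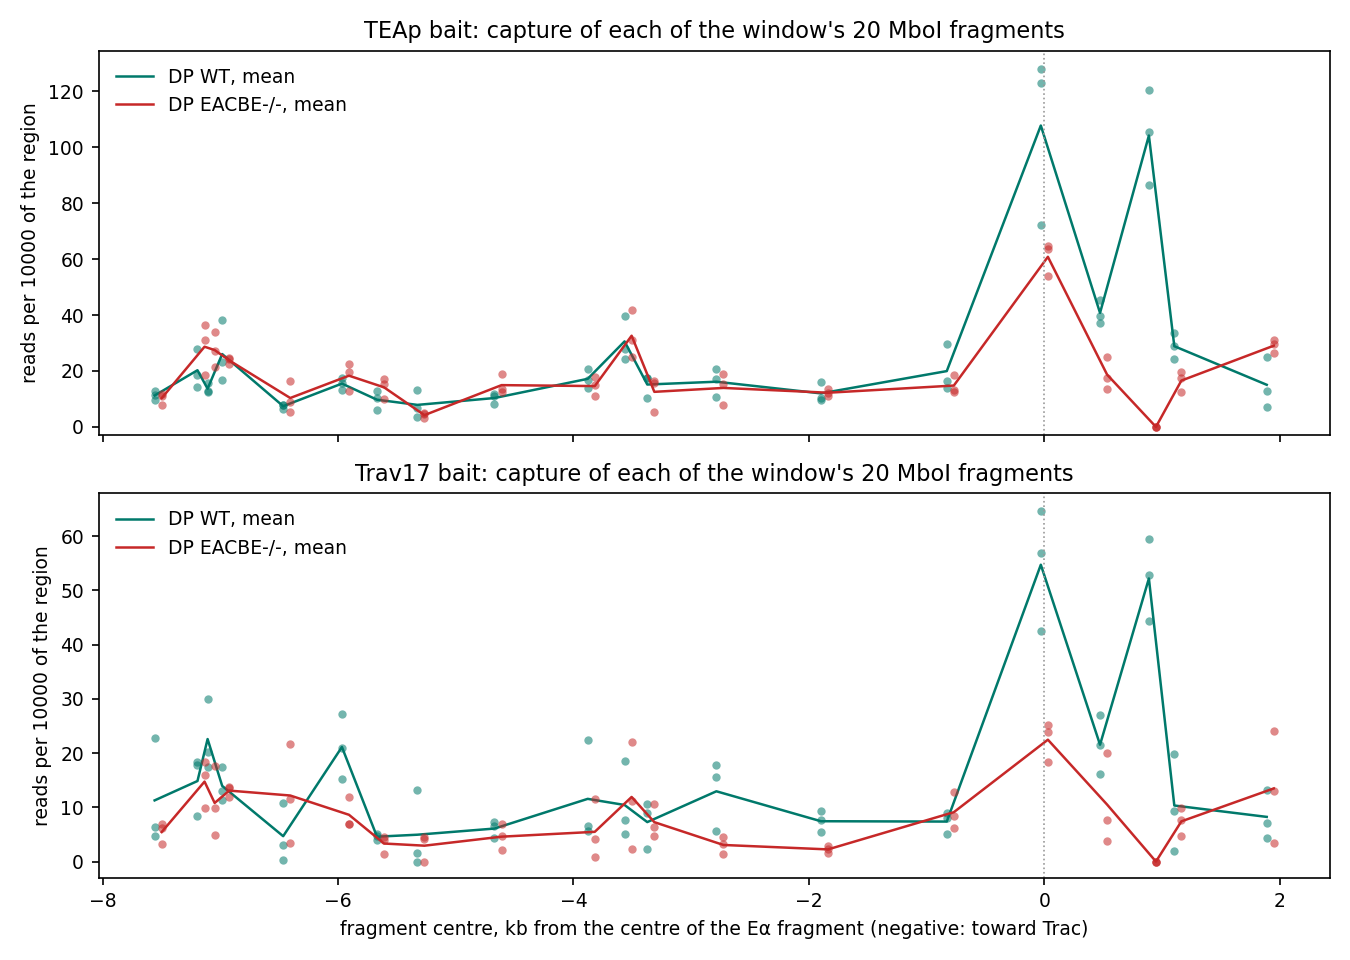
Reads per 10000 region reads that held each of the 20 MboI fragments (y axis), against the fragment's distance in kb from the Eα fragment (x axis), for the TEAp and the Trav17 bait; points are libraries and lines are group means, WT and EACBE-/-. The Eα fragment and the 154-base fragment stand highest in WT, and the latter is at 0 in every EACBE-/- library.

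The stretch's share of the pairs was largest from TEAp, then from Trdd2, Trav17 and INT2. With the TEAp bait, 4.59%, 5.24% and 5.17% of the region's pairs had at least 1 fragment in it (mean 5.00% ± 0.36, SD, n = 3). With the Trdd2 bait, 4.33%, 3.50% and 4.12% did (3.98% ± 0.43). With the Trav17 bait, 2.72%, 3.08% and 2.89% did (2.90% ± 0.18). With the INT2 bait, 2.06%, 2.002% and 2.04% did (2.03% ± 0.03). None of the 6 pairs of baits overlapped: the neighbours in this order differed by 1.02, 1.09 and 0.862 points (p = 0.1 for each in an exact two-sided permutation test over libraries, the smallest that 3 against 3 allows, and 0.1 after Benjamini-Hochberg over 6). The baits lie 74.1 kb (TEAp), 105.0 kb (Trdd2), 161.1 kb (INT2) and 422.2 kb (Trav17) from the Eα fragment. The bin of the INT2 bait itself was in 83.1% of the INT2 pairs, so that its shares are set against a total made up mostly of that bin.

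The Eα bin was captured more often than the Trac bin from each of the 4 baits. With the TEAp bait the Eα bin took 3.03%, 3.59% and 3.58% of the pairs and the Trac bin 1.64%, 1.79% and 1.63%. With the Trdd2 bait the means were 2.89% ± 0.47 and 1.15% ± 0.13. With the Trav17 bait the Eα bin took 1.56%, 1.79% and 1.79% and the Trac bin 1.16%, 1.36% and 1.14%, so the gap was narrower there. With the INT2 bait the means were 1.26% ± 0.08 and 0.785% ± 0.09. Among the region's bins the Eα bin ranked 11 for TEAp, 13 for Trdd2, 20 for INT2 and 31 for Trav17, bins at the baits included.

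**Figure D2:**
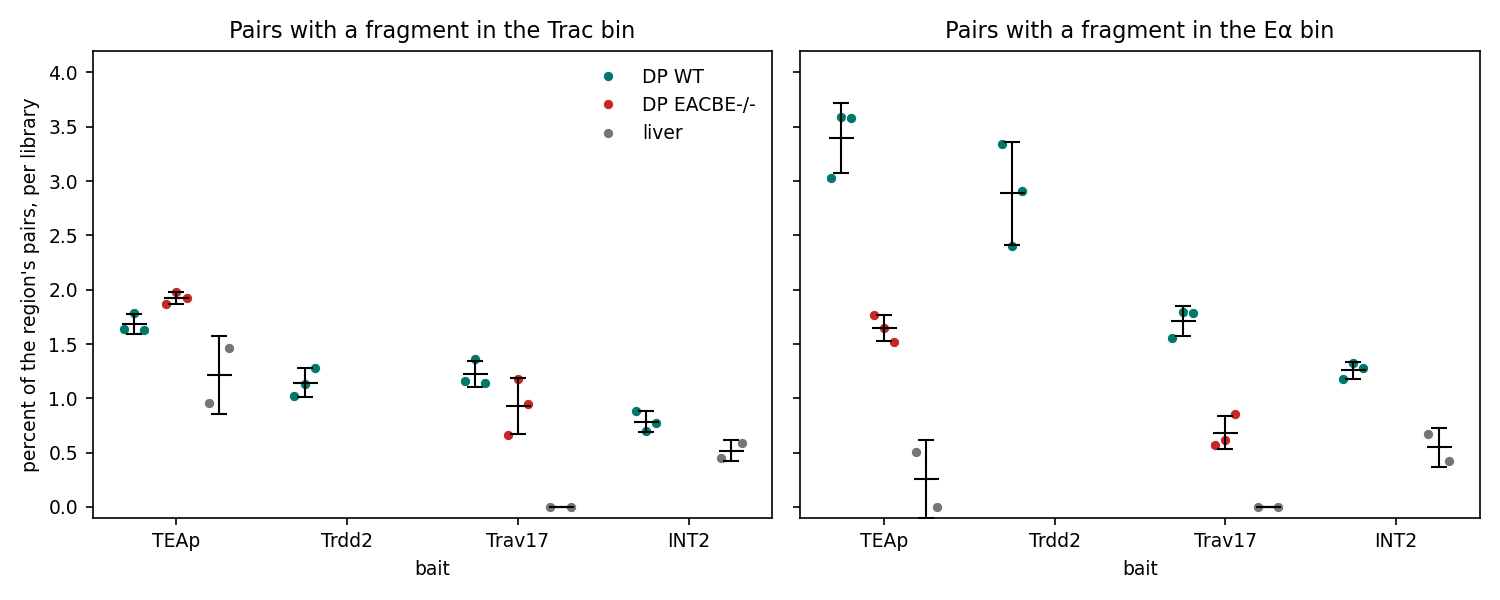
Percent of the region's pairs (y axis) with a fragment in the Trac bin (left) and in the Eα bin (right), by bait (x axis), for DP WT, DP EACBE-/- and liver; points are libraries and bars are mean ± SD. In the Eα bin the EACBE-/- libraries lie below the WT ones with both baits, and in the Trac bin they do not with the TEAp bait.

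The other piece of these contacts was next followed along the locus. With the TEAp bait the partner seen most often was the bin at the INT elements (chr14:54060001-54065000), at 48.1, 38.7 and 42.3 pairs per 10000 region pairs (43.0 ± 4.8). By mean it was followed by the neighbouring INT bin (28.0), the bin of Traj52 to Traj48 (22.1) and a bin of the Tcrd interval (18.9). In replicate 2 the neighbouring INT bin was higher, at 41.5. With the Trdd2 bait the INT bin had the highest mean, at 35.9, but its values were 50.9, 33.9 and 22.96. The bait's own neighbourhood had means of 30.5 (29.7, 34.1 and 27.7) and 28.5 (34.5, 21.97 and 29.1). That INT bin thus led in replicate 1 alone. The bin of the INT2 element was at 14.97, 7.77 and 31.2, and so stood above these others in replicate 3. From Trav17 the highest mean was instead that of the bin of Traj4 to Traj1 next to Trac, at 20.2 (16.45, 17.98 and 26.14). A bin with no annotated gene at chr14:53790001-53795000, near the bait, followed at 18.4 (20.25, 19.78 and 15.02). The INT bin was next at 15.1 (9.49, 5.99 and 29.75), a mean that rests mainly on replicate 3. From INT2 the bin of the bait itself took 137.8 (133.8, 137.9 and 141.8), and no bin past the INT elements reached a mean above 3.17.

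The named elements of the locus appeared as partners at lower and more scattered levels. With the TEAp bait, the bin of the INT2 element was the partner in 17.9, 18.95 and 16.96 pairs per 10000 and the bin of Trdd2, a diversity segment of the delta chain, in 12.02, 14.7 and 21.0. The bin of Traj61 and Traj56, the segments at the start of the Jα array, was the partner in 10.2, 15.1 and 16.4. The bin of Trav21-dv12, a V segment that both receptor chains can use, reached 15.6, 4.78 and 12.4, and that of Trav17 3.46, 0.38 and 5.48. The V bins thus varied more between libraries than the INT and Tcrd bins did.

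**Figure D3:**
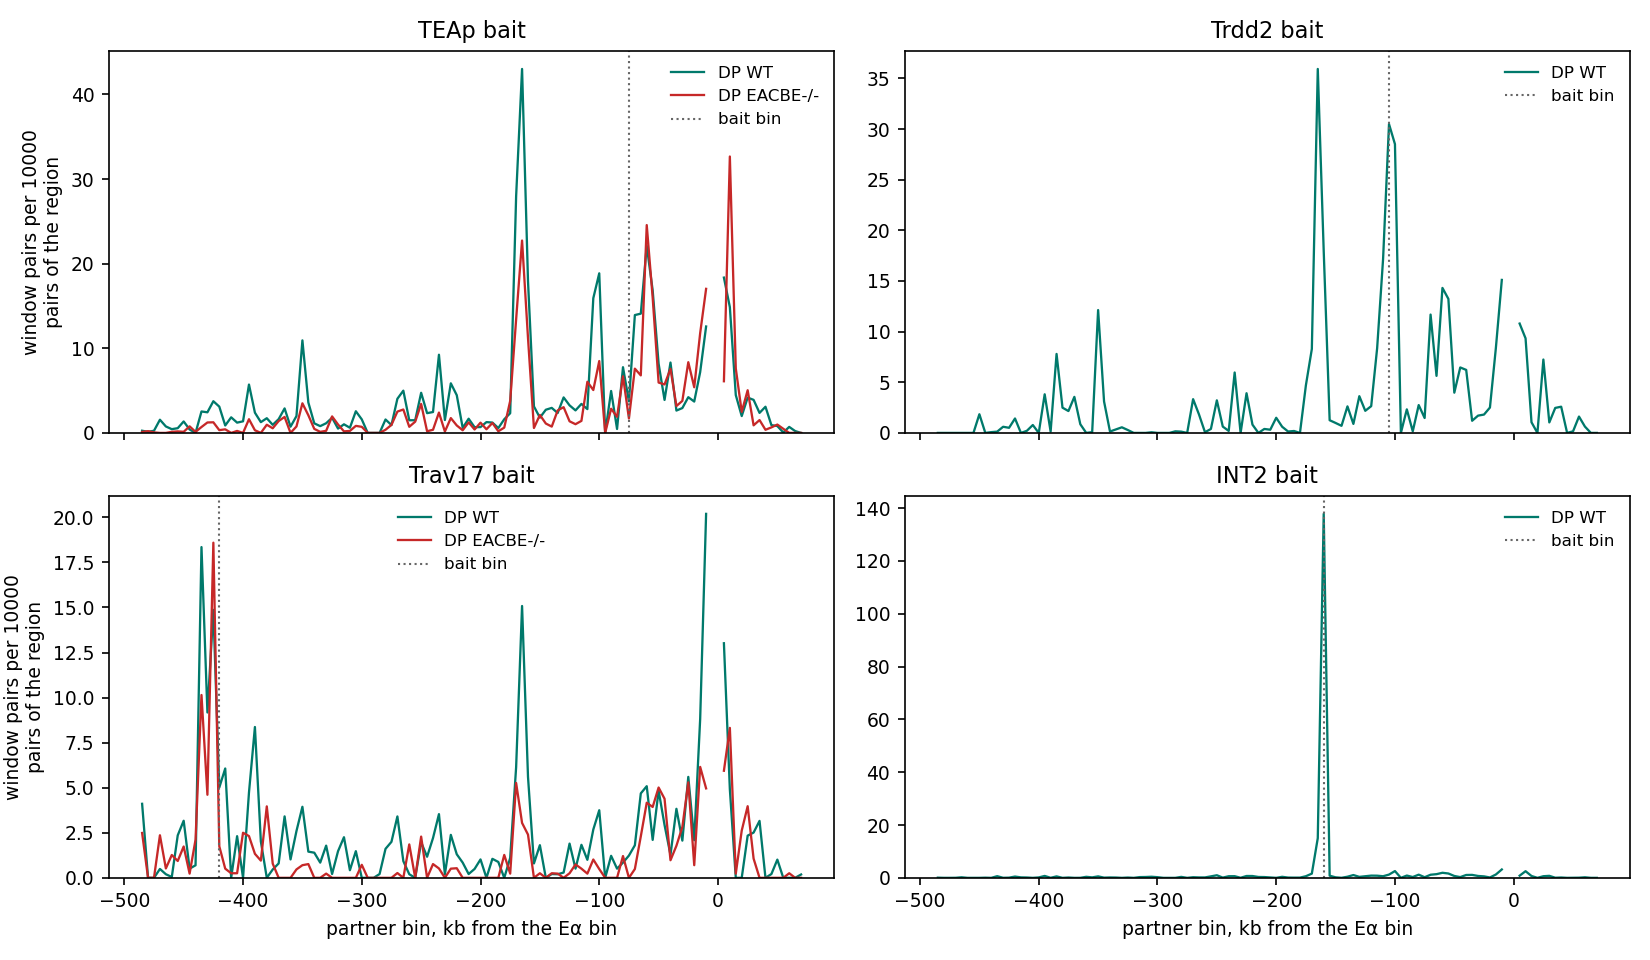
Pairs with the stretch per 10000 region pairs (y axis) by the distance in kb of the partner's bin from the Eα bin (x axis), 1 panel per bait, as group means; the dotted line is the bait's bin and the line is broken over the 2 bins of the stretch. With TEAp and Trdd2 the partner bin with the highest group mean in DP WT lies at the INT elements, at 43.0 and 35.9. With Trdd2 that bin led in replicate 1 alone, and the bin of the INT2 element stood above it in replicate 3 (31.2 against 22.96).

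Reads with and without a fragment in the stretch were then compared within each library, as a log2 ratio of the share of the other fragment in a class. In WT, the flank downstream of the stretch (54.23 to 54.3 Mb) was more frequent when the stretch was also captured, by 1.27 with TEAp, 1.28 with Trdd2 and 1.29 with Trav17 on the log2 scale. The distal Jα segments (54.165 to 54.22 Mb), next to Trac, were so by 0.69, 1.177 and 1.45. Both classes lie beside the stretch. The Tcrd interval (54.07 to 54.15 Mb) was less frequent, at -0.73, -0.71 and -0.69, and so were the proximal V segments (53.8 to 54.055 Mb), at -0.29 with TEAp and -0.51 with Trav17. With Trdd2 the proximal V segments were at -0.11, from -0.31 to 0.18 over the libraries, and so on both sides of 0. The INT class (54.055 to 54.07 Mb) differed between baits, at 0.02 with TEAp, 0.25 with Trdd2, 0.40 with INT2 and 1.00 with Trav17. These ratios were computed within libraries and describe the reads, with no test between baits.

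**Figure D4:**
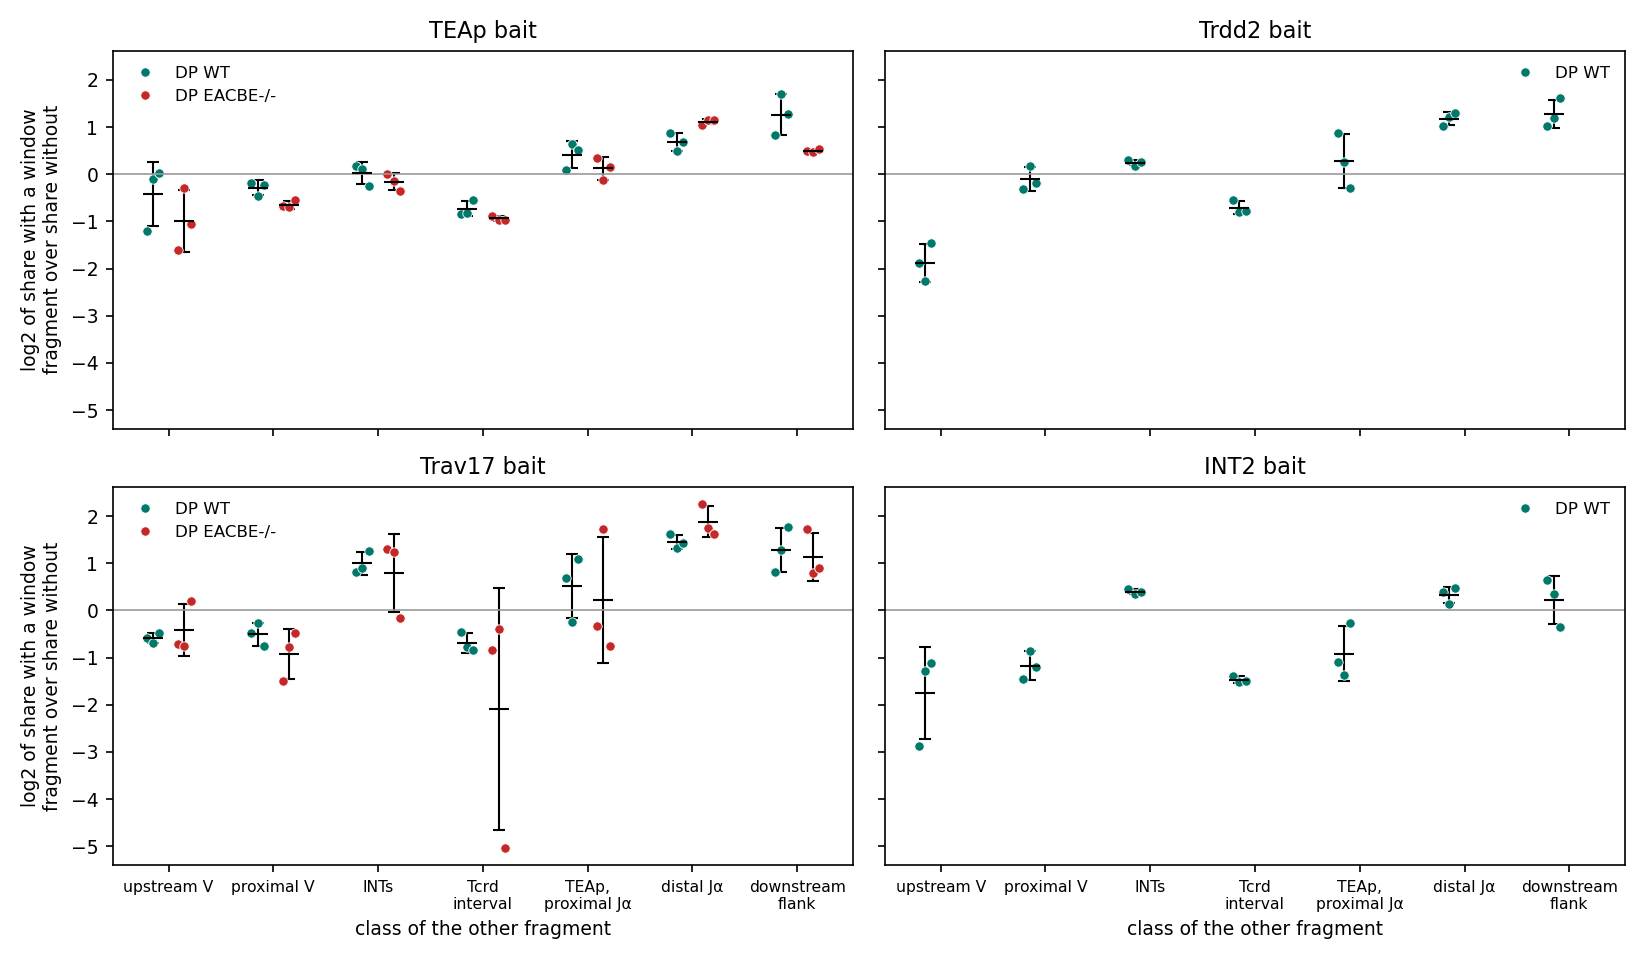
Log2 ratio of a class's share among reads with a fragment in the stretch to its share among reads without one (y axis), for 7 classes of partner along the locus (x axis) and 4 baits in DP WT and EACBE-/-; bars are mean ± SD over libraries. The downstream flank and the distal Jα segments lie above 0 with the TEAp, Trdd2 and Trav17 baits, and the Tcrd interval below 0.

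The pieces of the Eα bin differed in the partners they were captured with. Of the pairs of the 154-base fragment, the downstream flank made up 21.0%, 33.3% and 19.9% in the WT TEAp libraries, 14.4%, 35.3% and 35.8% in the Trdd2 libraries and 27.1%, 20.5% and 27.3% in the Trav17 libraries. For the Eα fragment the same shares were 1.25%, 6.39% and 6.21% with TEAp, 5.29%, 4.34% and 1.71% with Trdd2 and 1.11%, 7.04% and 1.29% with Trav17. The 154-base fragment was higher in 9 of 9 libraries, also when each distinct pair was counted once (9 of 9). This comparison was added after its values were seen. With TEAp the Eα fragment took its partners more from the INT elements than the 154-base fragment did (21.7% against 13.2% on average). Its distal Jα share was 15.2% against 10.3%, with overlap between libraries (11.2% to 22.3% against 9.20% to 11.96%). The Trac bin took 26.2% from the distal Jα segments with TEAp. With Trdd2 the INT shares were 18.9% against 17.3%, with overlap (12.5% to 26.7% against 11.2% to 23.3%). With Trav17 they were 19.7% against 2.80%.

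The comparison of EACBE-/- with WT asked how loss of the CTCF-binding element downstream of Eα altered these contacts. The stretch took a smaller share of the pairs in every EACBE-/- library than in any WT library of the same bait, and with TEAp the difference lay in the Eα bin alone. With TEAp the stretch took 3.57%, 3.61% and 3.42% of the pairs (mean 3.53% ± 0.10, n = 3), below each WT library, a difference of -1.47 points (SE 0.215, 0.707 times WT). With Trav17 it took 1.23%, 1.79% and 1.79% (1.60% ± 0.33), also below each WT library, a difference of -1.29 points (SE 0.215, 0.554 times WT). Both gave p = 0.1 in the exact two-sided permutation test, the smallest that 3 against 3 allows, and 0.1 after Benjamini-Hochberg adjustment. Of all bins of the region, 52.7% did not overlap between the groups with TEAp and 33.0% with Trav17, so that not overlapping was common.

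The Eα bin was called lower with both baits and the Trac bin with neither. With TEAp the Eα bin took 1.76%, 1.65% and 1.52% in EACBE-/- (mean 1.64% ± 0.12 against 3.40% ± 0.32). The log2 fold change was -1.04 (SE 0.10, edgeR quasi-likelihood test with Benjamini-Hochberg adjustment over 110 bins, adjusted p = 1.16e-08). With Trav17 it took 0.57%, 0.62% and 0.86% (log2 fold change -1.33, SE 0.22, adjusted p = 6.62e-07). These were calls against a background of 39.1% of bins called with TEAp, 22.7% lower, and of 20.4% with Trav17, 7.41% lower. The rank of the Eα bin moved from 11 to 32 with TEAp and from 31 to 83 with Trav17. The Trac bin took 1.87%, 1.98% and 1.93% with TEAp (log2 fold change 0.19, SE 0.10, adjusted p = 0.114) and 0.67%, 1.17% and 0.95% with Trav17, which overlap WT (log2 fold change -0.39, adjusted p = 0.258). The Trac values of TEAp all lay above those of WT and passed the threshold with DESeq2, edgeR with TMM scaling or distinct pairs (adjusted p = 0.0280, 0.0275 and 0.0346). A term for the interaction of bait and genotype did not pass for either bin (log2 difference Trav17 minus TEAp -0.58, SE 0.25, adjusted p = 0.0711 for the Trac bin and -0.29, SE 0.23, adjusted p = 0.369 for the Eα bin), where 24 of 110 bins passed.

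The Eα bin also held a fragment that gave no EACBE-/- read. The 154-base fragment had 0 reads in all 9 EACBE-/- libraries, those of the Eα bait included. Against a floor of 3 counts over the group this was at least 485-fold lower with TEAp and at least 69.4-fold lower with Trav17. It was called with both baits. The fragment was singled out by its lack of EACBE-/- reads in these same data, so its calls are no test of a change in contacts. No EACBE-/- read aligned to bases 54228261 to 54228414 or to the 411 bases from 54227726 to 54228136, and the bases between held 1 to 11 reads against 426 to 463 in WT. The labels give no coordinates for the deletion, so these positions are only those without reads. Without the 154-base fragment the WT Eα bin took 2.38% ± 0.19 with TEAp against 1.64% in EACBE-/-, and 1.197% ± 0.08 against 0.68% ± 0.15 with Trav17. The Eα bin was still called lower with both (log2 fold change -0.53, adjusted p = 2.36e-04, and -0.81, adjusted p = 0.0181). That setting keeps the 676-base fragment, which holds the 411 bases. Without both fragments the Eα bin took 1.98% in WT against 1.46% with TEAp (log2 fold change -0.43, SE 0.10, adjusted p = 0.00222) and 0.983% against 0.578% with Trav17 (-0.77, SE 0.28, adjusted p = 0.0375). The share of the whole stretch then differed by -0.25 points with TEAp, with overlap between the groups (exact permutation p = 0.2), and by -0.67 points with Trav17, without overlap (exact permutation p = 0.1).

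Of the other fragments of the stretch, the one that holds Eα was captured less with TEAp. It was in 64.8, 63.7 and 54.0 reads per 10000 in EACBE-/-, below all 3 WT libraries (log2 fold change -0.82, SE 0.20, adjusted p = 0.0113). The call held in 7 of 12 alternatives, and it was lost without WT replicate 2 or 3 or EACBE-/- replicate 2 or 3 (adjusted p = 0.0712, 0.0523, 0.0865 and 0.0749). With Trav17 it was in 23.8, 25.2 and 18.4 against 57.0, 42.6 and 64.7, without overlap, but did not pass (log2 fold change -1.29, adjusted p = 0.148). The 676-base fragment, which holds the 411 bases without EACBE-/- reads and the nearly empty bases beside them, was in 25.1, 13.5 and 17.5 with TEAp (log2 fold change -1.12, adjusted p = 0.00656; 0.0933 without EACBE-/- replicate 2). Reads over its whole length numbered 320 in the WT TEAp libraries and 0 in the EACBE-/- ones, and reads at its start alone 451 and 266, so that its lower count went with bases that gave no read. A fragment of 62 bases just before the first exon of Trac (chr14:54220311-54220372) was higher, at 27.0, 21.4 and 34.01 against 12.3, 12.8 and 15.8 (log2 fold change 1.00, adjusted p = 0.0267), and lost the call without EACBE-/- replicate 1, 2 or 3 or WT replicate 1 or 2 (adjusted p from 0.0515 to 0.162). In all, 4 of 20 fragments passed with TEAp and 1 of 20 with Trav17, where 6.98% and 0.0878% of the region's fragments did. The Trav17 call was the fragment without any EACBE-/- read, and it was the only call among the region's 1139 tested fragments. The Trav17 background is therefore that same call. The TEAp calls include that fragment and the 676-base fragment, so their count rests in part on bases that gave no EACBE-/- read.

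Among bin pairs, the Trac bin was paired more often in EACBE-/- with the bin that holds the 3′ end of Dad1 (chr14:54235001-54240000). With TEAp it was read 98, 77 and 15 times in EACBE-/-, or 17.3, 15.1 and 4.68 per 10000, against 3, 5 and 2 times in WT, or 0.45, 0.96 and 0.26. The log2 fold change was 4.49 (SE 0.69, edgeR adjusted p = 4.84e-08), and it passed in 13 of 13 alternatives (adjusted p from 4.46e-09 to 7.51e-04). Counted as distinct pairs the values were 27, 33 and 12 against 2, 1 and 2. The Dad1 bin was itself captured more in EACBE-/- with TEAp, at 7.77%, 8.67% and 9.001% against 2.89%, 2.49% and 2.26% (log2 fold change 1.73, adjusted p = 5.56e-13), and with Trav17 (0.71, adjusted p = 0.00121). The Eα bin paired less with the bin just downstream of it, at 24, 19 and 7 reads against 63, 96 and 126 (log2 fold change -2.10, SE 0.51, adjusted p = 0.00584). Without the 154-base fragment the WT counts were 18, 28 and 68 and the adjusted p was 0.798, and it was also lost without WT replicate 2 or 3 or EACBE-/- replicate 3 (0.105, 0.0527 and 0.0538).

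The pairs gave few calls as a whole. With TEAp 2 of the 173 member pairs that had enough reads passed, where 1.14% of all pairs did. The median log2 fold change of the 173 pairs was -0.95, against -0.16 over all pairs tested. Without the fragment that gave no EACBE-/- read, the median was -0.56 over 161 member pairs, against -0.15 over all pairs tested. That setting keeps the fragment before it, which also holds bases without EACBE-/- reads. With Trav17 0 of 88 passed by edgeR, 8 had an unadjusted p under 0.05, and TMM scaling and DESeq2 also gave 0, where 0.0431% of all pairs passed. Of the Trav17 pairs that ranked first, the Eα bin with the INT bin was read 15, 8 and 168 times in WT and 0, 5 and 2 times in EACBE-/- (adjusted p = 0.687). The WT count rests mainly on replicate 3, which had the most reads of the region (71922) but 6965 distinct pairs, against 6292 and 6607 in replicates 1 and 2. Counted as distinct pairs the values were 6, 6 and 15 in WT against 0, 2 and 1. The Trac bin with the bin of Traj4 to Traj1 was read 24, 24 and 126 times in WT and 7, 5 and 3 times in EACBE-/- (adjusted p = 0.687), and the Trac bin with the bin of Trav19 0 times in WT and 1, 0 and 14 times in EACBE-/- (adjusted p = 0.687). Of all member pairs, 199 had at least 1 read in WT and 177 in EACBE-/- with TEAp, and 145 and 106 with Trav17.

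The share of the stretch's partners in each class was compared next, which set aside its total capture but not which of its fragments were captured. With TEAp the share of proximal V segments was smaller and that of distal Jα segments larger in every EACBE-/- library. The proximal V segments made up 13.6%, 13.4% and 14.04% of the partners in EACBE-/- against 24.5%, 18.9% and 24.6% in WT (13.7% ± 0.32 against 22.7% ± 3.26). The INT elements made up 13.4% ± 1.88 against 17.8% ± 2.03 and the Tcrd interval 12.8% ± 0.39 against 15.4% ± 1.55. In the other direction the distal Jα segments made up 29.0%, 32.01% and 31.8% against 21.8%, 16.6% and 17.6% (31.0% ± 1.67 against 18.7% ± 2.76), and the downstream flank 16.7% ± 0.51 against 11.1% ± 2.61. TEAp and the proximal Jα segments made up 4.56% against 6.30%, with overlap between the groups. The first 5 of the 8 classes did not overlap between the groups (exact permutation p = 0.1, the smallest possible, and 0.32 after Benjamini-Hochberg over 16 tests), so none passed. These shares mix the 2 bins of the stretch, and the Eα bin was captured less in EACBE-/-. Within the Eα bin the INT share was alike, at 19.2% in EACBE-/- against 19.8% in WT, and within the Trac bin it was 9.20% against 15.2%. The WT Eα bin includes the fragment that gave no EACBE-/- read, whose INT share was 13.2%. For the Eα fragment alone the INT share was lower, at 12.99% (9.25% to 15.26%) in EACBE-/- against 21.67% (16.19% to 25.78%) in WT. The proximal V share was lower within both bins, at 12.8% against 22.7% and 15.7% against 24.7%. These values by bin and by fragment were not tested. With Trav17 all 8 classes overlapped, with the proximal V segments at 26.5% against 32.3% and the distal Jα segments at 25.6% against 20.5%.

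**Figure D5:**
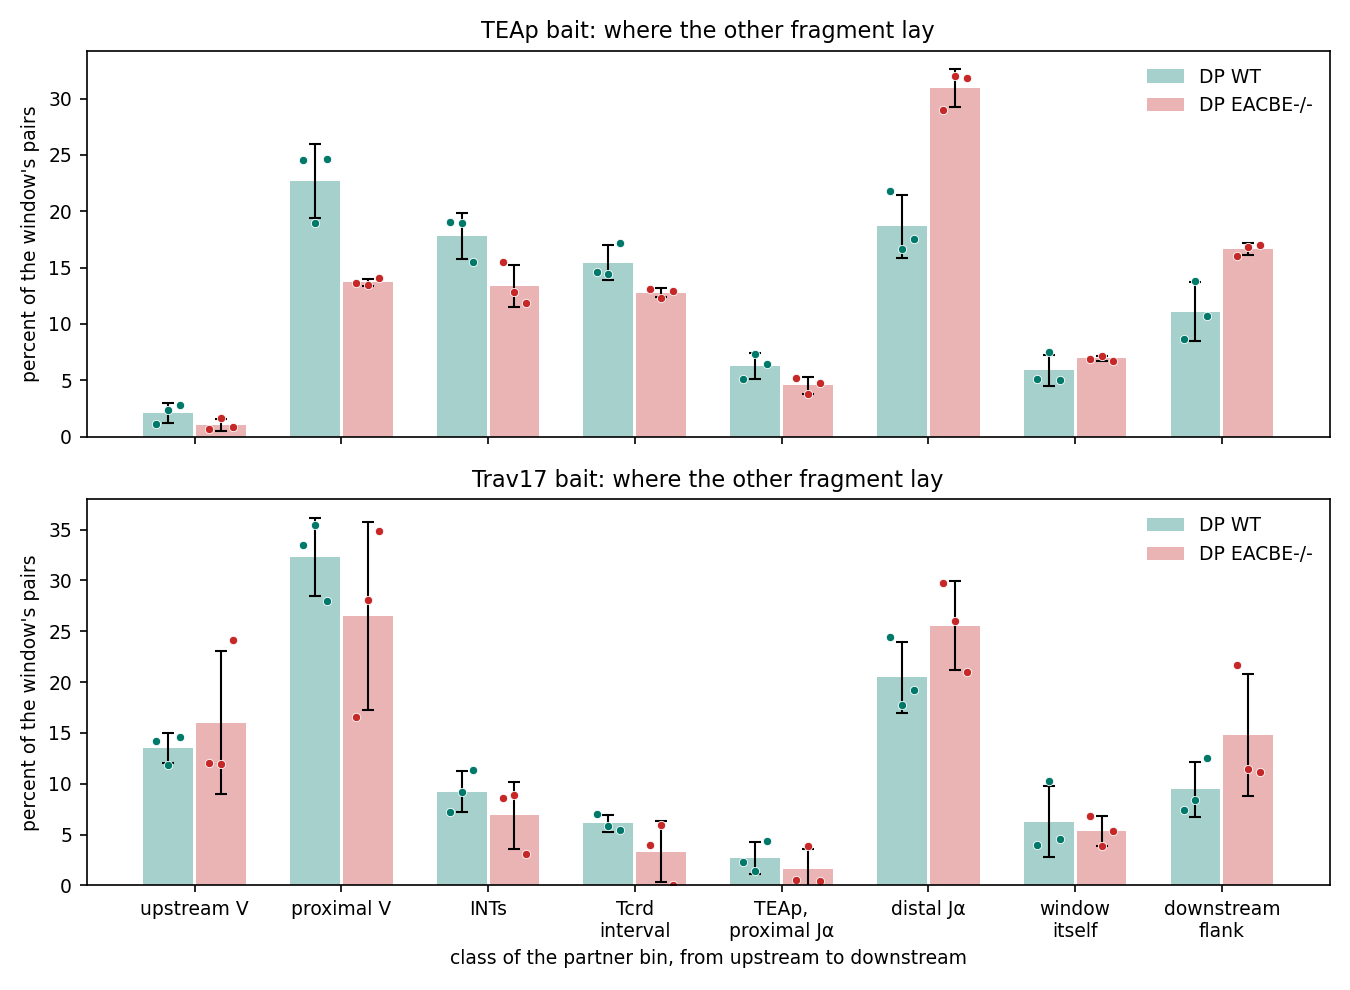
Percent of the stretch's pairs whose other fragment lies in each of 8 classes along the locus (y axis; classes on the x axis), TEAp and Trav17 baits, WT and EACBE-/-; bars are mean ± SD and points are libraries. With TEAp, the proximal V share is lower (13.7% against 22.7%) and the distal Jα share higher (31.0% against 18.7%) in EACBE-/-.

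Levels per 10000 region pairs showed a smaller difference for the distal Jα segments than shares did. Pairs of the stretch with the proximal V segments numbered 48.6, 48.4 and 48.1 in EACBE-/- against 112.4, 99.1 and 127.5 in WT with TEAp, and pairs with the INT elements 55.3, 46.2 and 40.6 against 87.5, 99.1 and 80.1. Pairs with the Tcrd interval numbered 46.6, 44.5 and 44.3 against 67.0, 75.8 and 89.1. Pairs with the distal Jα segments numbered 103.6, 115.4 and 108.9 against 99.9, 87.1 and 90.8. The Jα values were slightly above those of WT in every library. Pairs with the downstream flank numbered 57.4, 60.7 and 58.3 against 39.7, 72.5 and 55.6, which overlap. Of these WT flank pairs, 121 of 264, 184 of 379 and 184 of 426 were of the fragment that gave no EACBE-/- read. The flank levels therefore overlap only with that fragment counted in WT, and its pairs are in the WT levels of the other classes too. Pairs with TEAp and the proximal Jα segments numbered 18.5, 13.5 and 16.2 against 23.3, 38.7 and 33.3. The levels of the proximal V, INT, Tcrd and proximal Jα classes were thus lower in every EACBE-/- library. Of the named elements, the bin of Trdd2 was at 4.94, 7.45 and 2.81 against 12.02, 14.7 and 21.0, that of Trav21-dv12 at 4.94, 2.74 and 2.81 against 15.6, 4.78 and 12.4, and that of Traj61 and Traj56 at 6.71, 7.64 and 8.42 against 10.2, 15.1 and 16.4. Trdd2 and the first Jα segments did not overlap between the groups, and Trav21-dv12 did. The bins of Dad1 were at 41.9, 51.3 and 50.2 against 19.5, 34.3 and 22.7. None of these values of named elements was tested.

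The classes were then set against reads of the same library without the stretch. The log2 ratio of with to without was lower in EACBE-/- with TEAp for the proximal V segments (by -0.36), the Tcrd interval (-0.20) and the downstream flank (-0.77), and higher for the distal Jα segments (0.43). It was also higher for the distal Jα segments with Trav17 (0.43). These did not overlap between the groups (exact permutation p = 0.1, 0.28 after adjustment over 14 tests). The WT reads with the stretch include the fragment that gave no EACBE-/- read, so these ratios do not compare the same fragments. With TEAp that fragment held 121 of the 264, 184 of the 379 and 184 of the 426 WT pairs with the downstream flank. The downstream flank was 4.82% of the fragments in WT reads without the stretch and 12.7% in EACBE-/- ones, so its lower ratio stood beside a higher share in both kinds of read. Of the Eα fragment's own pairs with TEAp, the downstream flank made up 19.6%, 15.7% and 31.2% in EACBE-/- against 1.25%, 6.39% and 6.21% in WT, a difference of 17.6 points (exact permutation p = 0.1), and 8.06 points when distinct pairs were counted once.

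The comparison of DP WT with liver set cells in which the locus is active beside a tissue that does not use it. It used the same DP WT libraries as the comparison above for TEAp and Trav17, so the results are not independent of each other. In liver the stretch took a smaller share of the pairs from all 3 baits, and had no read from Trav17. With TEAp, 48 of 3333 pairs (1.44%, exact 95% interval 1.06% to 1.91%) and 12 of 818 pairs (1.47%, 0.760% to 2.55%) held it, a DP to liver ratio of 3.44. With Trav17, 0 of 1247 and 0 of 675 pairs did, which by a floor of 3 counts allows shares of up to 0.241% and 0.444% (exact 95% upper limits 0.295% and 0.545%). Against the floor over the group, DP WT was at least 18.6-fold higher. With INT2, 1.12% and 1.01% held it (335 and 129 pairs), against 2.03% in DP WT, a ratio of 1.91. No library of DP overlapped with liver (exact permutation p = 0.1 for each bait, the smallest that 3 against 2 allows), as for 63.4% of bins with TEAp, 72.3% with INT2 and 58.9% with Trav17.

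The difference from liver was larger in the Eα bin than in the Trac bin. With TEAp the Eα bin had 17 and 0 pairs in liver, and DP WT was higher by 3.09 on the log2 scale (SE 0.40, edgeR adjusted p = 3.14e-05), while the Trac bin did not pass (0.63, adjusted p = 0.129; 0.0126 without liver replicate 2). With INT2 the Eα bin was higher in DP WT by 1.17 (SE 0.23, adjusted p = 1.41e-05) and the Trac bin by 0.62 (adjusted p = 0.0419), but the latter was at 0.02 with TMM scaling and -0.09 with DESeq2, and the former at 0.59 and 0.48, the last of which did not pass (adjusted p = 0.0713). The Trac bin call with INT2 was also lost without DP replicate 1, 2 or 3 or liver replicate 1 (adjusted p = 0.0989, 0.0595, 0.120 and 0.214). With Trav17 both bins passed, at least 10.97-fold higher in DP WT for the Eα bin and at least 7.83-fold for the Trac bin (adjusted p = 1.40e-04 and 5.94e-04). Bins called higher in DP WT were common, at 33.0% with TEAp, 56.0% with INT2 and 27.8% with Trav17.

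The pair of the Eα bin with the INT bin, which was the leading partner of the stretch with TEAp in DP WT, had no read in liver. With INT2 as the bait it was read 144, 354 and 129 times in DP WT and 0 times in both liver libraries, at least 16.8-fold higher (adjusted p = 2.79e-05; 0.115 without DP replicate 2). The Trac bin paired with the INT bin 37, 39 and 74 times against 0, at least 4.57-fold (adjusted p = 0.0321; not past without DP replicate 2 or 3 or liver replicate 1, at 0.198, 0.156 and 0.140). With TEAp as the bait the Eα bin and the INT bin were read together 275, 137 and 186 times against 0, at least 4.23-fold (adjusted p = 0.0105), and the next INT bin 111, 168 and 135 times against 0, at least 3.07-fold (adjusted p = 0.0323). Both TEAp pairs lost the call without any 1 of the DP libraries or without liver replicate 1 (adjusted p from 0.0915 to 0.841). In the other direction, the Trac bin with the bin of Traj7 to Traj5 was read 33, 6 and 35 times in DP WT and 7 and 4 times in the far shallower liver libraries (log2 fold change -3.10, adjusted p = 0.0190; 0.141, 0.390, 0.143 and 0.0945 without DP replicate 1, 2 or 3 or liver replicate 2). The Eα bin with the bin of Abhd4, a lipid hydrolase gene, was read 0, 0 and 2 times against 16 and 0 times with INT2, a liver count that rests on replicate 1 alone (log2 fold change -5.77, adjusted p = 0.0388; 0.303 without DP replicate 2).

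In all, 3 of 154 member pairs passed with TEAp and 3 of 84 with INT2, where 2.39% and 6.64% of all pairs did. With Trav17 0 of 79 passed by edgeR, with 1 at an unadjusted p under 0.05, and DESeq2 and TMM scaling gave 0 with 3 and 10, where 1.23% of all pairs passed. In liver, 15 member pairs had a read with TEAp, 11 with INT2 and 0 with Trav17. The partners in liver rest on few reads: with TEAp the distal Jα segments were 21 of 48 and 5 of 12 pairs, and pairs inside the stretch 4 of 48 and 5 of 12. With INT2 the INT elements, where the bait lies, were 305 of 335 and 129 of 129 partners in liver, and made up 76.0% on average in DP WT.

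With Eα as the bait the stretch holds the bait, and its share is given with no test. It made up 13.1%, 13.5% and 11.9% of the pairs in DP WT, 10.98%, 10.92% and 10.95% in EACBE-/- and 14.7% and 13.3% in liver. Most of it was the Trac bin, at 9.77% on average in DP WT against 3.39% for the Eα bin. A second Eα primer, which lies in the Eα fragment, gave 8.16% in its 1 library.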

How the data were processed

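The submitters' processing notes name fastp 0.20.0, cutadapt 1.18, Bowtie2 2.4.5, SAMtools 1.9, bedtools 2.29.2, DESeq2 1.34.0 and mm10. The authors deposited whole-number counts of reads per pair of 5000-base bins, and lists of reads with their captured fragments; counts were used as deposited. For 19 libraries with both, binning the reads gave the deposited counts with a difference of 0. Reads were not given for the liver and INT2 libraries, and counts not for Trdd2. The deposited scaled signal was not used.

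Each bait was fitted alone with edgeR 4.0.16 in R 4.3.3 (quasi-likelihood test, with the pairs of the region as library size and at least 10 counts, Benjamini-Hochberg over all features, threshold 0.05), and shares were compared by exact two-sided permutation over libraries (scipy 1.17.1). Alternatives were TMM scaling, DESeq2 1.42.0, no count minimum, a replicate block, each library left out, pairs within 1 bin left out and distinct pairs, and, added after the data were seen, the fit without the fragment that no EACBE-/- read held, alone or with the fragment before it, and the bait by genotype interaction. Scripts were tested on simulated data. The named partners were the 5 leading bins of each bait and a fixed set of elements, the named pairs were those past the threshold, up to 3, or else the 3 with the lowest p, and the named fragments the 3 with the most reads of each bait and those past the threshold. The members and lists were chosen with earlier results of these data known. Replicates are separate samples per the labels, and no pair of them agreed within sampling noise (the smallest chi-square per degree of freedom was 2.06). Genes are those of GENCODE vM21.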

Additional observations from a re-analysis of the deposited data

How the results depend on the processing

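Of 788 recomputed values, 695 counted as unchanged. For fitted values this meant the same direction and side of the threshold, and for counts of calls a count of like size. Permutation results could not cross the threshold, since their smallest p was 0.1, and counted as unchanged unless the direction reversed. The 695 is therefore no measure of how firm those results are. Captured share with TEAp in EACBE-/- reversed where the Trac bin alone was counted (0.24 points, against -1.47), and the Trac bin of INT2 against liver reversed with DESeq2 (-0.086). In the bin fit of TEAp in EACBE-/-, 2 bins in place of 1 passed with DESeq2, TMM and distinct pairs. In that of INT2 against liver 0 passed with DESeq2 and 1 with TMM, with the replicate block or without pairs within 1 bin, in place of 2, and in that of Trav17 against liver 1 in place of 2 with the replicate block. Fragments of the stretch called with TEAp were 2 with the replicate block and 6 with distinct pairs, against 4 in the report, and with Trav17 2 with DESeq2, against 1. Member pairs called with TEAp in EACBE-/- were 7 with DESeq2, 9 with distinct pairs and 1 without the fragment without EACBE-/- reads (2 in the report). Against liver they were 8 with DESeq2, 12 with TMM, 0 with the replicate block and 1 without pairs within 1 bin with TEAp (3 in the report, 4 with no count minimum), and 1 with the replicate block and 2 with DESeq2 with INT2 (3 in the report). The cause was not tested. Leaving out 1 library gave 1 to 4 fragments with TEAp in EACBE-/- (1 without EACBE-/- replicate 2), 1 to 5 pairs with TEAp in EACBE-/-, 0 to 5 pairs with TEAp against liver (0 without DP replicate 1, 2 or 3) and 0 to 4 with INT2 (0 without DP replicate 2), and 1 to 2 bins with TEAp and with INT2 against liver. The replicate numbers are not stated to pair libraries, and deviations of same-numbered libraries correlated at -0.09, 0.21 and 0.20 with TEAp and -0.26, -0.05 and -0.24 with Trav17, so the block was not used beyond these values. Another scaling moved the median of all bins against liver by -0.59 (INT2, TMM) and -0.71 (INT2, DESeq2) on the log2 scale. The depth of liver limits its pairs: a count of 0 there allows shares of up to 0.241% and 0.444% with Trav17.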
